A study of Drosophila melanogaster with 24 samples.

Results

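A set of 300 transcripts that were high in male and low in female whole bodies, and that stood at the low end of expression among such male-biased transcripts, was followed across both sexes, heads and bodies, and 2 fly strains. The members were chosen from these same values. Of 13873 transcripts with a value on all 24 arrays, 1413 were higher in male than in female whole bodies by at least 2 log2 in both strains, on means of 3 arrays. They were ranked by their level in male bodies, averaged over the strains, and the 300 lowest were taken.

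The study profiled adult Drosophila melanogaster of a mutant strain, lol (Lobe-less), and of the control strain w1118, which carries a mutation of the white eye-colour gene. According to the title, the lol locus makes a long noncoding RNA involved in shaping the mushroom body of the brain. The 8 groups of 3 arrays are w1118 and lol males and females, each as whole bodies and as heads. All flies were kept at 23 °C and collected on day 2 after eclosion into liquid nitrogen, and 100 bodies or sieved heads were pooled for each RNA extraction. The labels describe the 3 samples of a group as separate cultures. The labels used here give neither the lol allele nor the shared background of the 2 strains.

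In Drosophila, most transcripts with higher levels in males than in females come from the male germline and reproductive tract. Spermatocytes switch on a large programme of testis-specific genes before meiosis, and the accessory glands and ejaculatory duct make the proteins of the seminal fluid. Females lack these organs, and heads of either sex do not contain them. In pooled whole bodies, fewer cells of a type and less RNA per cell cannot be told apart.

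The files identify transcripts by FlyBase transcript ID and do not pair the IDs with gene names. The reference gene table listed 51 such IDs, 43 of them measured, and none of the 300 members was among them. Of the 1413 strongly male-biased transcripts it gave a single gene for 1. Members are therefore given by ID and without a role. None of 209 genes in 10 marker lists (germline, spermatid, Y-linked, accessory gland, ovary, eye and other tissues) could be matched to a measured transcript, so neither the testis origin of the members nor the labelled tissues could be checked against markers.

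Array medians lay between 12.1 and 12.25 log2 and replicate arrays correlated at 0.912 to 0.99 across transcripts. Of the 12 head arrays, w1118 male head replicates 1 and 2 and lol male head replicate 1 stood apart from the other male head arrays in male-biased transcripts. Together with lol female head replicate 1, added from earlier results of these data, they are called the 4 head arrays, and the head results that turn on them are also given without them. Of w1118 male heads that leaves 1 array.

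In male bodies the members lay between 9.3 and 11.71 log2, with a median of 11.15. That is the 16.8th to the 42.5th percentile of all transcripts in male bodies, so the set was low but not at the bottom of the array's scale. The median over members was 10.77, 10.83 and 11.14 on the 3 w1118 male body arrays and 11.29, 11.3 and 11.29 on the 3 lol male body arrays. All 3 lol arrays were above all 3 w1118 arrays, and w1118 replicate 3 was the closest to them. In lol male bodies 285 members were above the 25th percentile of all transcripts, and 252 were in w1118 male bodies. In lol male bodies 3 members were above the median of all transcripts, and in w1118 male bodies 0 were.

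In female bodies the same transcripts mostly lay near the floor. In w1118 females their medians were 8.04, 7.97 and 7.87, and in lol females 8.09, 7.98 and 7.9. Of the 300, 218 (72.7%) fell under the 10th percentile of all transcripts in w1118 females and 208 (69.3%) in lol females. The deposited values come with no background measure, so whether a member was detected at all in females is not known, and the sex differences below understate any true difference for a transcript whose female value is background.

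**Figure D1:**
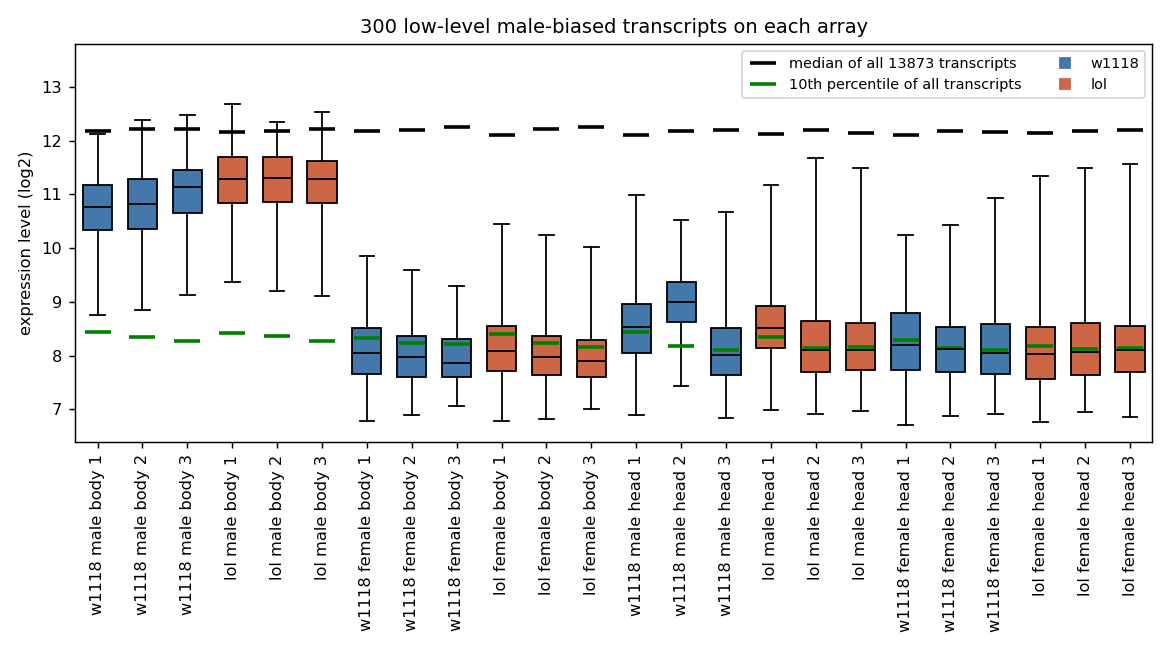
Expression level (log2, vertical axis) of the 300 members on each of the 24 arrays; boxes span the quartiles, whiskers reach the lowest and highest member, black dashes mark the median and green dashes the 10th percentile of all 13873 transcripts. Members have medians of 10.77 to 11.3 on the 6 male body arrays and of 7.87 to 8.09 on the 6 female body arrays, and w1118 male head replicate 2 has the highest median of the head arrays (9).

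The sex difference that chose the members is given as a description. It had a median of 2.79 log2 in w1118 (6.94-fold) and 3.12 in lol (8.7-fold), and it ranged from 2 to 4.29 and from 2.04 to 4.88. A difference of at least 3 log2 was found for 107 members in w1118 and 172 in lol, and one of at least 4 for 6 and 27. For 227 of the 300 the lol value was the larger. Across members the difference in w1118 and in lol correlated at 0.64 (Pearson, n = 300 transcripts that share the same 12 body arrays and the same lower limit).

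The transcript with the largest mean difference, FBtr0080786 (rank 267), stood at 11.38, 10.97 and 11.78 in w1118 males, at 11.78, 11.94 and 11.67 in lol males, and between 6.83 and 7.26 on the 6 female body arrays. FBtr0079805 (rank 259) was similar, at 10.89 to 11.4 in w1118 males and 11.72 to 12.43 in lol males against 6.99 to 7.28 in females. The smallest mean difference belonged to FBtr0077187 (rank 153), at 10.56 to 11.42 in w1118 males and 8.78 to 9.01 in w1118 females. Its sex difference was 2.02 in w1118 and 2.06 in lol. The male and female arrays did not overlap for any of these transcripts, but the rule chose them for a sex difference on these same arrays.

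The lowest member in male bodies, FBtr0086337, had 9.29, 9.51 and 9.31 in w1118 males and 7.15, 7.06 and 7.74 in w1118 females. The last one taken, FBtr0085010, was at 11.714 on average in males of the 2 strains, and the first one left out, FBtr0085582, at 11.717. The limit therefore falls in a continuum of levels and not at a gap.

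The size of the sex difference changed along the ranking. Among the 100 lowest members its median was 2.43 log2 in w1118 and 2.86 in lol, among the next 100 it was 2.82 and 3, and among the highest 100 it was 3.16 and 3.62. The 813 strongly male-biased transcripts ranked above the members had medians of 4.06 and 4.61, and the 300 most abundant had 4.7 and 5.7. Female body levels rose much less along the same ranking, from a median of 7.81 for the lowest 100 members to 8.51 for the 813 and 9.47 for the most abundant. The sex difference thus grew along the ranking mainly through the male level, which the ranking itself orders.

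**Figure D2:**
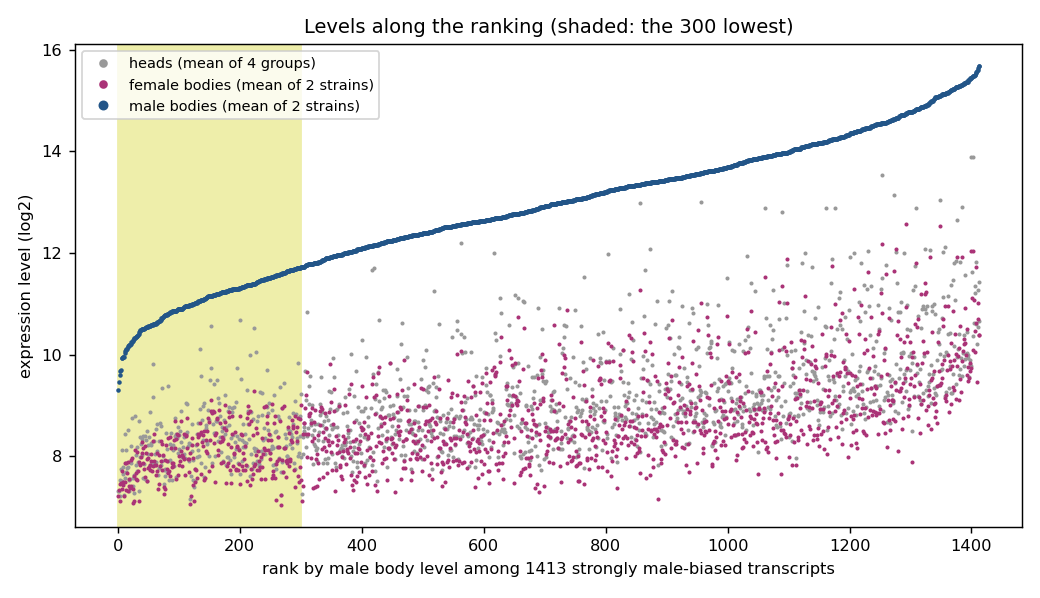
Levels (log2, vertical axis) of the 1413 strongly male-biased transcripts in order of their male body level (horizontal axis); each dot is a transcript's mean in male bodies, female bodies or heads, and the shaded strip holds the 300 members. The male level runs from 9.3 to 11.71 within the strip, and the dots for female bodies and heads lie mostly between 7 and 9 there.

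To see how far the choice depends on single samples, the members were chosen again without replicate 1, 2 or 3 of each body group. Of the 300, 267, 276 and 259 were chosen again. The arrays left out take no part in that choice. On them the newly chosen transcripts had a median sex difference of 2.46, 2.73 and 3.1 log2 in w1118 and 2.98, 3.18 and 3.35 in lol, and all 300 were higher in the male than in the female array of both strains each time. The limit of 2 log2 was reached in both strains by 201, 251 and 278 of them.

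Heads were not used to choose the members. Members were low in heads, with group medians of 8.14 in w1118 females, 8.1 in lol females, 8.56 in w1118 males and 8.26 in lol males. Under the 10th percentile of all transcripts were 167 members (55.7%) in w1118 female heads, 173 (57.7%) in lol female heads, 118 (39.3%) in w1118 male heads and 167 (55.7%) in lol male heads, fewer than in female bodies of either strain. The medians without the 4 head arrays were 8 in w1118 males, 8.12 in lol males and 8.07 in lol females, and 169, 161 and 164 members were under the 10th percentile. The head level was under the male body level of the same strain by a median of 2.3 log2 in w1118 males and 2.93 in lol males, and no member was higher in male heads. These gaps were 2.74 and 3.04 without the 4 head arrays, and 1 member was higher on the single w1118 male head array. In all 4 head groups, 231 members had a mean under 9 (235 without the 4 head arrays). A small number departed from this: 21 had means above 9 in all 4 head groups and 2 above 10 (19 and 3 without the 4 head arrays).

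The 2 transcripts above 10 with all arrays, singled out after their values were seen, are FBtr0083241 and FBtr0070437. FBtr0083241 stood at 10.34 ± 0.3 (SD, n = 3) in w1118 male heads, 10.93 ± 0.22 in lol male heads, 10.54 ± 0.35 in w1118 female heads and 10.92 ± 0.4 in lol female heads. Its male bodies were at 11.15 ± 0.59 in w1118 and 11.46 ± 0.15 in lol, and its female bodies at 8.87 ± 0.16 and 8.72 ± 0.29. FBtr0070437 was at 10.15 to 10.78 in the 4 head groups, at 11.29 and 11.02 in male bodies and at 8.83 and 8.96 in female bodies. Both were thus present in heads of either sex at levels well above those of the female whole body.

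The question whether the male bias of bodies extends to heads was tested as male against female heads within each strain, with a limma model of 8 group means fitted to all 24 arrays and Benjamini-Hochberg adjustment over the 13873 transcripts. Adjusted p-values under 0.05 were called here and below. No member was called in either strain (limma), where the background was 0.0865% of all transcripts in each. At an unadjusted p under 0.05 there were 51 members (17%) in w1118, against 11.6% of all transcripts, and 12 (4%) in lol, against 2.88%. The median male minus female difference was 0.34 log2 in w1118, with 256 of 300 above 0, and 0.17 in lol, with 231 above 0. Over all transcripts the medians were -0.04 and -0.02.

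The head arrays of a group were not alike in this respect. Member medians were 8.54, 9 and 8 on w1118 male heads 1, 2 and 3, and 8.52, 8.1 and 8.1 on lol male heads, against 8.06 to 8.19 in w1118 and 8.03 to 8.11 in lol female heads. W1118 male head replicate 2 was the highest of the 12 head arrays for 148 of the 300 members. Without the 4 head arrays, the median difference between the sexes was -0.09 in w1118 and 0.02 in lol, and 121 and 158 members were above 0. The male arrays among them were picked for their levels of such transcripts, which by itself brings the medians towards 0. Lol female head replicate 1 was not raised, with a member median of 8.03. The single w1118 male head array that is left has no replicate, so its spread is borrowed from the rest. With w1118 male head replicate 3 left out instead, 37 members (12.3%) were called, all higher in males, and the share of all transcripts called was then 8.52%.

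The same arrays rose further for more abundant male-biased transcripts. The 300 most abundant had medians of 11.84, 12.66 and 8.87 on w1118 male heads 1, 2 and 3 and 12.19, 8.87 and 8.93 on lol male heads, and the 813 had 9.86, 10.7 and 8.41, and 10.16, 8.4 and 8.48. The members' excess on w1118 male head replicate 2 over the mean of the other pair had a median of 0.6 log2, against 1.46 for the 813 and 2.27 for the most abundant. On lol male head replicate 1 it was 0.34, against 1.4 and 3.11. On both arrays the members had the smallest excess of the 3 sets. What these head samples held was not tested.

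**Figure D3:**
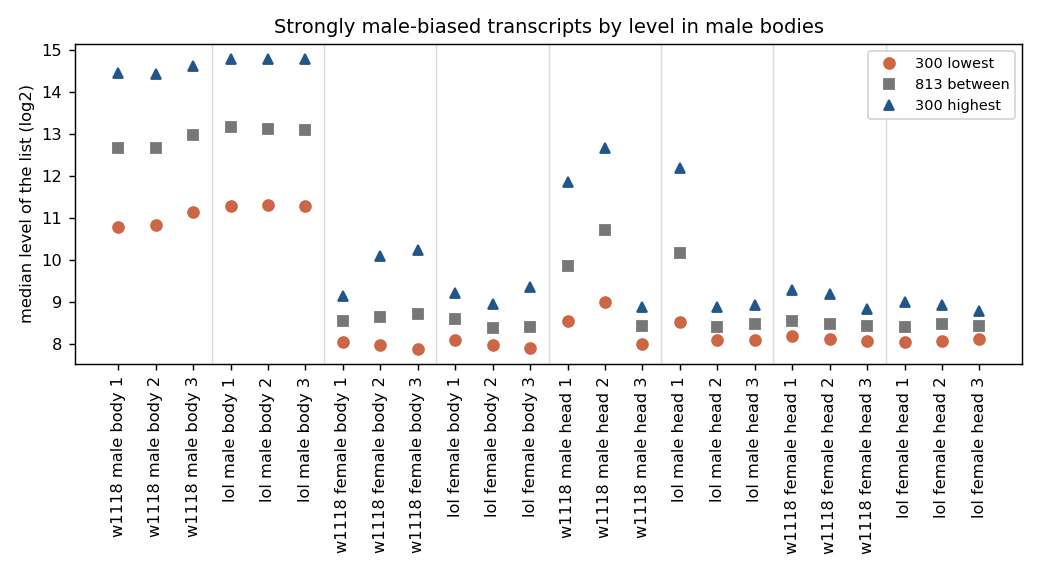
Median level (log2, vertical axis) on each array of the 300 lowest, the 813 intermediate and the 300 most abundant strongly male-biased transcripts. On w1118 male head replicates 1 and 2 and lol male head replicate 1 the most abundant stand at 11.84 to 12.66 and the lowest at 8.52 to 9, while on the other 9 head arrays all 3 sets lie between 8 and 9.27.

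In male bodies most members had a higher mean in lol than in w1118. The comparison uses the arrays that chose the members, but the rule took the mean of the strains and not their difference, beyond both strains having to reach 2 log2. Of the 300 members, 36 rose, 2 fell and 262 did not pass. Called higher were 12% of the members against 2.89% of all transcripts, and called lower 0.667% against 5.76%. The median difference was 0.39 log2 (quartiles 0.07 and 0.62), 241 members were above 0, and the median over all transcripts was -0.02. In 88 members (29.3%) the 3 lol arrays were all above the 3 w1118 arrays, against 12.8% of all transcripts.

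Transcripts of the same level with no strong sex bias had no upward shift of their median. There were 1760 with a male body level inside the members' range and under 1 log2 between the sexes in both strains. Of these 72 rose and 75 fell in lol male bodies (8.35% called, against 8.65% of all transcripts), with a median of -0.04. Rises were a larger part of the calls than over all transcripts, where 401 rose and 799 fell. Both other groups of strongly male-biased transcripts were shifted in the same direction as the members, by a median of 0.4 log2 for the 813 and 0.25 for the 300 most abundant, with 21 and 0 called higher.

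The spread differed between these sets. The model's median standard error was 0.315 log2 for members, 0.457 for the 813 and 0.785 for the most abundant, against 0.202 over all transcripts. With the 12 body arrays alone it was 0.244, 0.226 and 0.289, and 51 members (17%), 95 of the 813 (11.7%) and 9 of the 300 most abundant (3%) were called higher, against 4.12% of all transcripts. Without the 4 head arrays the numbers were 47, 93 and 8, against 4.07%.

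The number of members called also turned on single body arrays. It fell from 38 to 19 without w1118 male body replicate 1 (17 higher), to 13 without replicate 2 (11 higher) and to 17 without lol replicate 1 (15 higher). As a share of the members that is 6.33%, 4.33% and 5.67%, down from 12.7%. The share of all transcripts called in either direction fell as well, from 8.65% to 5.08%, 4.41% and 5.15%. Without w1118 replicate 2 the members' share was thus slightly under that of all transcripts. Shares of all transcripts called higher are not given for these fits. All of the 17, 11 and 15 were among the 36. Without w1118 replicate 3, the control array nearest to the mutant arrays, 55 members (18.3%) were called. Of these 52 were higher, 34 of them among the 36. The share of all transcripts called in either direction rose to 11.7%. The median difference stayed between 0.32 and 0.47 when any 1 of the 6 arrays was left out.

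**Figure D4:**
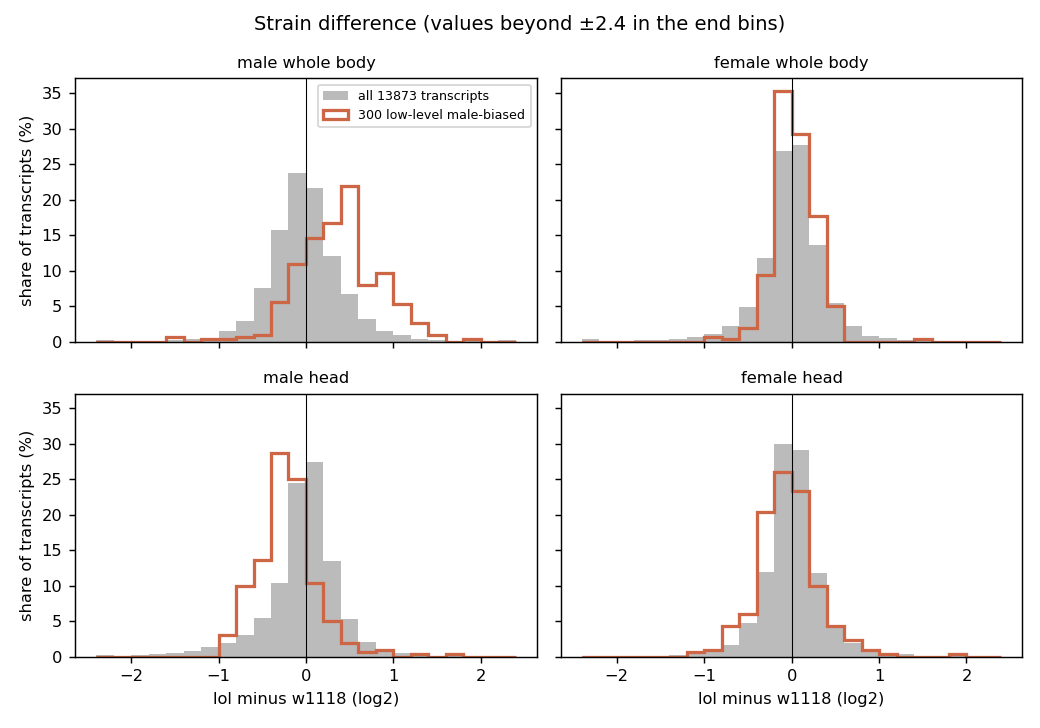
Distribution of the lol minus w1118 difference (log2, horizontal axis) as a share of transcripts (percent, vertical axis) for the 300 members (orange outline) and all 13873 transcripts (grey) in the 4 sexes and tissues. In male bodies the members are displaced to a median of 0.39, in male heads to -0.25, and in female bodies and heads they have medians of 0.02 and -0.07.

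The 36 transcripts that rose did so by 0.59 to 1.98 log2, with a median of 1.05 (2.07-fold), and 24 of them by at least 1. Their median level went from 10.39 in w1118 to 11.49 in lol male bodies. In female bodies the same 36 had a median difference of 0.07, and 33 of them were within 0.5 log2 of 0. Such small differences were usual there. The quartiles were -0.11 and 0.18 over all members and -0.17 and 0.18 over all transcripts, and most members lay near the floor in females. In heads the medians were -0.12 in males and 0.02 in females, and 0.12 and 0.11 without the 4 head arrays.

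The largest rise was that of FBtr0086820, at 10.12, 9.49 and 11.31 in w1118 and 12.16, 12.15 and 12.53 in lol male bodies. The 3 lol arrays were all higher, which the rule for naming members required, though the w1118 arrays were widely spread. The difference was 1.98 ± 0.49 (SE) log2 (adjusted p = 0.0163, limma). It lost its call without w1118 male body replicate 1 (adjusted p = 0.0638) or 2 (0.109) or lol replicate 3 (0.0578). In heads this transcript was at 8.48 to 10.34 in w1118 males and 9.7 to 11.04 in lol males, a difference of 0.98 that did not pass (adjusted p = 0.362, and 0.14 with 0.997 without the 4 head arrays).

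FBtr0072041 rose with little spread, from 9.91, 10.18 and 10.1 to 11.76, 11.53 and 11.45. The difference of 1.52 ± 0.24 (SE) log2 (adjusted p = 0.000501, limma) was called with any 1 of the 6 arrays left out. In female bodies it stood at 7.65 to 7.9 in w1118 and 7.37 to 7.85 in lol, and on head arrays between 7.1 and 8.25. It was high on no array other than those of male bodies.

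The 2 members that fell were FBtr0077803 and FBtr0082235. FBtr0077803 had 12.13, 11.73 and 11.78 in w1118 male bodies and 10.76, 10.46 and 9.72 in lol, a difference of -1.57 ± 0.32 (SE) log2 (adjusted p = 0.00453, limma). FBtr0082235 had 11.78, 11.14 and 12.38 against 10.54, 9.97 and 10.58, a difference of -1.4 ± 0.31 (adjusted p = 0.00854). The lol and w1118 arrays did not overlap for either, which the naming rule required. Both kept their calls with any 1 of the 6 arrays left out. In the other 6 groups FBtr0077803 lay between 7.02 and 8.4.

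In female bodies few members were called. Of 300, 1 rose and 1 fell, 0.667% called against 4.87% of all transcripts. The median difference was 0.02 log2, beside 0.01 over all transcripts. FBtr0080572 rose (below), and FBtr0080507, given here because the count is small, fell by 0.91 log2 (adjusted p = 0.0421, limma). That call was lost without any single w1118 female body array or lol replicate 3. Most members lay near the floor in females, and whether this limited the calls was not tested.

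In female heads 2 members rose and 1 fell, 1% called against 3.63% of all transcripts, with a median of -0.07. Leaving out the 4 head arrays, 3 rose and 2 fell, against 3.11% of all transcripts. FBtr0082135 fell from 9.89, 9.8 and 10.31 in w1118 to 9, 9.26 and 8.55 in lol, a difference of -1.06 ± 0.24 (SE) log2 (adjusted p = 0.0118, limma). The groups did not overlap, which the naming rule required. The difference was -1.09 (adjusted p = 0.0349) without the 4 head arrays. The call was lost without w1118 replicate 3 (0.0775) or lol replicate 3 (0.0701), in the fit to the 12 head arrays (0.0686) and in that to the 6 compared arrays (0.102). In male heads the same transcript stood at 9.83, 10.09 and 9.84 against 9.47, 8.64 and 9.22, also without overlap (-0.81, adjusted p = 0.0569, and -0.91 with 0.339 without the 4 head arrays). In male bodies it was slightly higher in lol, by 0.49 (adjusted p = 0.225). Besides FBtr0080572, FBtr0078923 rose in female heads by 0.98 (adjusted p = 0.0311), which was not called without the 4 head arrays (0.78, adjusted p = 0.152).

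In male heads 2 members rose and 2 fell, 1.33% called against 4.68% of all transcripts. The median was -0.25 log2, with 59 of 300 above 0. Without the 4 head arrays it was 0.05 with 167 above 0, and 1 rose and 1 fell, against 1.62% of all transcripts. FBtr0078545 rose from 9.36, 9.29 and 9.52 to 10.47, 10.36 and 11.15 without overlap (required by the naming rule), by 1.27 ± 0.3 (SE) log2 (adjusted p = 0.0182, limma). It was not called without the 4 head arrays (1.23, adjusted p = 0.343), in the fit to the 12 head arrays (0.116) or to the 6 compared arrays (0.128), or without w1118 male head replicate 1 (0.0617) or 2 (0.0727) or lol replicate 3 (0.133). In female heads it differed by 1.1 (adjusted p = 0.0526), and in male bodies by 0.45 (adjusted p = 0.426). FBtr0089545 fell by 0.93 (adjusted p = 0.018) and FBtr0071766 by 0.77 (adjusted p = 0.0196). Without the 4 head arrays these differences were -1.51 for FBtr0089545 and -0.78 for FBtr0071766, each against w1118 replicate 3 alone. For FBtr0089545 that array was the highest of the w1118 male heads (8.46, 8.91 and 9.26 on replicates 1, 2 and 3). The count of 4 was 22 (7.33%) without w1118 male head replicate 3 and 13 (4.33%) without lol replicate 1, mostly falls (20 and 10). The share of all transcripts called rose with it, to 9.14% and 7.78%, above the members' share in both. The count was 1 without w1118 replicate 2 or lol replicate 3.

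Over the 4 strain comparisons, 43 of the 300 members were called at least once and 41 of them in exactly 1 comparison. Among all 13873 transcripts the numbers were 1896 and 1258. The share called at least once was thus similar in the members and in all transcripts. Of the 36 members that rose in male bodies, 1 also rose in female bodies, whereas 165 of the 401 transcripts of the whole array that rose in male bodies were also higher in female bodies, where 357 rose. These comparisons share no arrays, but in females most members lay near the floor.

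FBtr0080572 was the 1 member called in the same direction in all 4 comparisons. That is 0.333% of the members, against 1.17% of all transcripts (88 higher and 74 lower). In male bodies it stood at 10.58, 10.89 and 10.62 in w1118 and at 12.68, 11.87 and 11.72 in lol, a difference of 1.39 ± 0.25 (SE) log2 (adjusted p = 0.00141, limma). In female bodies it rose from 8.71, 8.6 and 8.25 to 9.82, 10.24 and 10.03, by 1.51 (adjusted p = 0.000888). In male heads it rose from 9.6, 9.25 and 10.12 to 11.18, 11.67 and 11.5, by 1.8 (adjusted p = 0.000158), and in female heads from 9.1, 9.62 and 9.83 to 11.34, 11.5 and 11.56, by 1.95 (adjusted p = 7.47e-05). Without the 4 head arrays the head differences were 1.47 in males, against a single w1118 array, and 2.02 in females. The lol and w1118 arrays did not overlap in any of the 4, which the naming rule required in female bodies and in heads. Its head levels did not differ between the sexes beyond their spread, at 9.65 ± 0.44 and 9.52 ± 0.38 (SD, n = 3) in w1118 males and females and 11.45 ± 0.25 and 11.47 ± 0.11 in lol. The call in male heads was lost with the 6 compared arrays alone (adjusted p = 0.0712). Its sex difference in bodies was 2.18 in w1118 and 2.06 in lol, near the lower limit of the rule.

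The strain difference in male bodies was also set against that in male heads, as an added test of the difference between them. A total of 6 members passed (limma), 2% against 0.432% of all transcripts, each with the more negative lol effect in heads. They included FBtr0089545, with 1.04 log2 in male bodies and -0.93 in male heads, and FBtr0072041, with 1.52 and -0.09. Without the 4 head arrays, which leaves 1 w1118 male head array, the median of this difference over members was -0.31 log2, against -0.59 with all arrays. In females the same test called 0 members, against 0.375% of all transcripts, and between male and female heads it called 0 members and 0% of all transcripts, with 9 (3%) and 10 (3.33%) members at an unadjusted p under 0.05, against 5% and 1.81% of all transcripts.

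**Figure D5:**
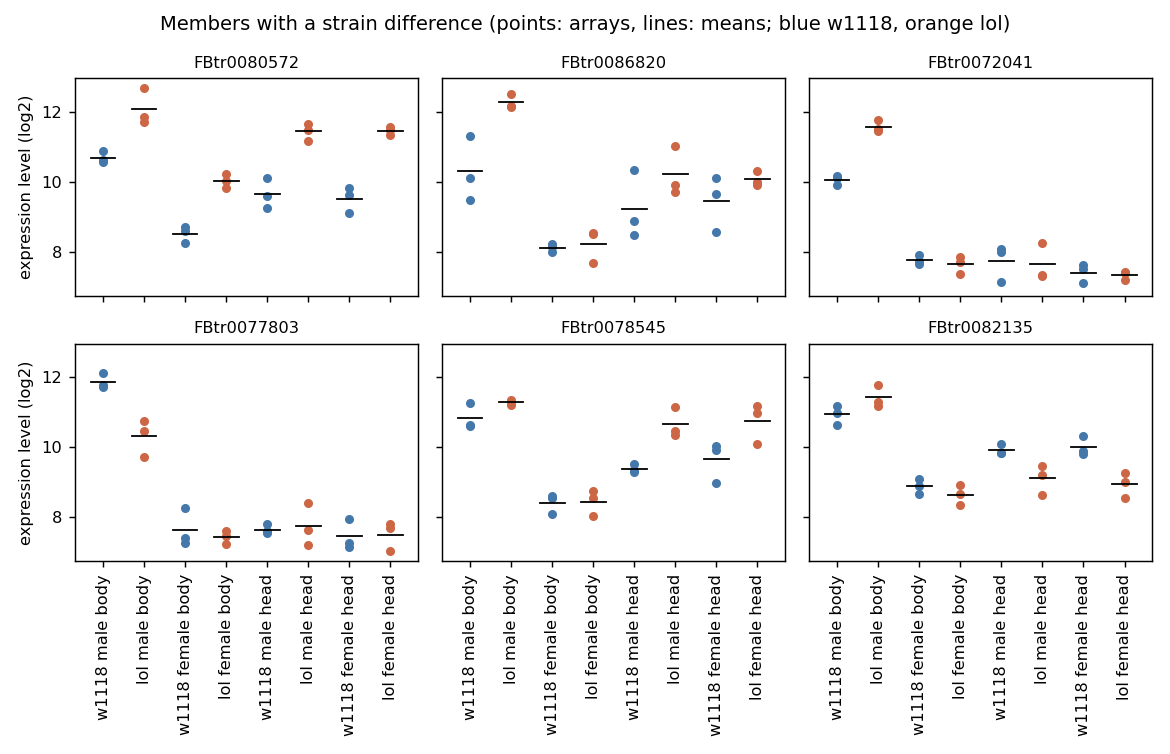
Levels (log2, vertical axis) of 6 members on the 3 arrays of each group (points; blue for w1118, orange for lol) with group means (lines). FBtr0080572 is higher in lol in all 4 sexes and tissues, FBtr0086820 and FBtr0072041 rise and FBtr0077803 falls in male bodies, FBtr0078545 is called higher in lol male heads, and FBtr0082135 is called lower in lol female heads.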

How the data were processed

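Values deposited by the authors are log2 expression per transcript from RMA (background correction, quantile normalization between arrays and a summary over probes), per the submitters' processing notes. The array was a one-colour Cy3 design for 16637 transcripts with 8 probes each, per the labels. Base 2 was read from the values (6.6134 to 15.9201). No source used here gives the software version, a background level per array, or the set of arrays that went into one normalization. Of 15595 transcripts, 1722 without values were left out. Precision is limited by having 3 arrays in a group.

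Members were found by the rule stated in the opening. The members, lists, comparisons and most alternatives were chosen with earlier results of these data known. A limma model (version 3.58.1, R 4.3.3; lmFit, contrasts, eBayes) with 8 group means was fitted to the 24 arrays. A total of 6 comparisons were tested, with Benjamini-Hochberg adjustment over all 13873 transcripts, and adjusted p under 0.05 was called. The sex difference in bodies, which chose the members, was not tested. Named in each comparison are the 2 most positive and 2 most negative called members of at least 1 log2 without overlap between the groups' arrays. Members named outside this rule were picked after their values were seen. On simulated data for lol against w1118 male bodies (13873 transcripts, 200 changed), 89% of changes of 2 log2 and 58% of 1 log2 were recovered, with 9 false among 156 calls. The changed transcripts were drawn at random from all transcripts, with independent normal noise. The model's median standard error is 0.202 log2 over all transcripts and 0.315 for members, so these rates do not give the recovery for members.

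Replicate numbers are shared between groups. For lol against w1118 male bodies (correlations of same-numbered deviations 0.23, 0.29 and 0.34) and w1118 male against female heads (0.63, 0.15 and 0.26), every pair was over 0.1, so the numbers were taken to pair the arrays. In the other comparisons they were not, though the limit is arbitrary. Female bodies (0.4, 0.08 and 0.51), male heads (0.59, -0.59 and 0.67) and female heads (0.46, 0.12 and -0.11) of the 2 strains each missed it through 1 pair. All calls and p-values given above come from the fit without pairing. With the replicate number as a block, adjusted p in male bodies was 0.00237 for FBtr0086820 and 0.000541 for FBtr0072041 (limma). It was 0.000345 for FBtr0077803 and 0.00844 for FBtr0082235. Counts with the replicate number as a block are given at the end.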

Additional observations from a re-analysis of the deposited data

Results flagged for a closer look

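The strain effect in males differed between tissues for 6 members when the difference itself was tested (limma, adjusted p under 0.05), against 0.432% of all transcripts. All 6 had a more negative lol effect in heads than in bodies. The member with the largest gap was FBtr0089545, at 9.96, 10.39 and 10.48 in w1118 and 11.21, 11.44 and 11.3 in lol male bodies (1.04 log2), and at 8.46, 8.91 and 9.26 in w1118 and 8.35, 7.73 and 7.77 in lol male heads (-0.93). The groups did not overlap in either tissue, and the 2 effects differed by -1.97 ± 0.32 (SE) log2 (adjusted p = 0.00504). FBtr0087652 was next, at -1.66 (adjusted p = 0.0223), with 1 in bodies and -0.66 in heads. Without the 4 head arrays 1 of the 6 was still called. The count lay between 1 and 13 with any 1 of the 12 male arrays left out. The share of all transcripts called in these refits is not given here. The 0.432% belongs to the fit of all arrays, so these counts have no background beside them.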

How the results depend on the processing

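In male bodies the members' median difference stayed above 0 in every alternative run (0.07 to 0.51). The 38 calls (12.7% of members, against 8.65% of all transcripts) became 18 with members chosen at 3 log2. That is 6%, under the 8.65% of all transcripts called. All 18 were higher, where 2.89% of all transcripts were called higher. With the lowest 25% of transcripts dropped, a filter that 4 of the 300 members pass, 1 was called, against 8.54% of all transcripts. With any 1 compared array left out the counts lay between 13 and 55 there (4.33% and 18.3% of members, against 4.41% and 11.7% of all transcripts). They lay between 1 and 2 in female bodies, 1 and 22 in male heads and 2 and 4 in female heads. For sex they lay between 0 and 37 in w1118 heads (12.3% at the most, against 8.52% of all transcripts), and at 0 in lol heads. For strain in female bodies and in heads, the members' share called was under that of all transcripts in every run. The drop of the lowest 25%, which leaves 4 members, is the exception. The 2 calls in female bodies were 4 with body arrays alone, 0 with members chosen at 3 log2, and 1 with an intensity trend, centred arrays, the lowest 25% dropped, the 200 lowest transcripts or members chosen at 1.5 log2. The 4 in male heads were 1 with head arrays alone or the lowest 25% dropped, 0 with the 6 compared arrays or members chosen at 3 log2, and 2 without the 4 head arrays. The 3 in female heads were 1 with head arrays alone, the 6 compared arrays or the lowest 25% dropped, 0 at 3 log2, and 5 without the 4 head arrays or with the 400 lowest transcripts. Median differences changed sign in female bodies (-0.01 with the 400 lowest, -0.05 at 3 log2, -0.04 without lol replicate 1, against up to 0.08 without another array) and, over the 4 members left with the lowest 25% dropped, in male heads (0.34) and female heads (0.41), with 0 for sex in lol heads. They also did so without the 4 head arrays (0.05 in male heads, -0.09 for sex in w1118 heads). The cause was not tested. With the replicate number as a block the 38 calls in male bodies were 44 (14.7%, against 9.52% of all transcripts). The 0 for sex in w1118 heads stayed at 0. In the comparisons whose numbers were not taken to pair the arrays, the counts were 2, 6, 4 and 0 in female bodies, male heads, female heads and for sex in lol heads. Levels near the floor, without a background measure, limit what can be seen in females and heads.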
